A study of Mus musculus with 8 samples.

Results

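The NDUFA4 family is a group of small mitochondrial proteins that associate with cytochrome c oxidase, and 3 of its genes were measured in hematopoietic stem cells of mice given granulocyte colony-stimulating factor (G-CSF) or phosphate-buffered saline (PBS): Ndufa4, Ndufa4l2 and AA467197, the mouse Nmes1 gene. The genes were taken by symbol from probe sets annotated to exactly 1 gene, and the probe set with the highest mean log2 intensity over the arrays would have been kept where a gene had several. Each of the 3 genes had 1 probe set, and 0 probe sets named any of them together with another gene, so they made up 3 of the 19938 genes measured. The family was selected on the measured difference of AA467197 between G-CSF and PBS arrays, and its paralogs were taken with it. The cells were KSL SLAM cells, sorted from bone marrow as negative for lineage markers, CD48 and CD41 and positive for c-Kit, Sca-1 and CD150. The G-CSF group had received 125 mcg per kg under the skin 2 times a day and the other group PBS, both for 36 h, with 4 arrays per group and the marrow of 5 to 10 mice pooled for each array. The sources used here name no strain, age or sex of the mice. The comparison asks how transcripts of these stem cells differ after G-CSF.

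Cytochrome c oxidase, complex IV of the respiratory chain, passes electrons to oxygen, and NDUFA4 is a subunit of it, although its name comes from an earlier assignment to complex I. NDUFA4L2 is a paralog whose gene is induced in hypoxia. AA467197 encodes a further paralog, the counterpart of human C15orf48, which is induced in inflamed tissue and stimulated macrophages and can take the place of NDUFA4 in complex IV. Its transcript also carries the hairpin of the microRNA miR-147, and miR-147 is known to act on the Ndufa4 transcript.

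Sequence is shown for AA467197 because it was the member with the largest difference between the groups. RefSeq (GRCm38.p6) places AA467197 on chromosome 2, from 122637887 to 122641076. The Mir147 hairpin, from 122640803 to 122640881, lies inside that span and ends 195 bases before the end of the gene. The 5p arm, the arm of this hairpin in the table used, is printed with its seed, bases 2 to 8, in capitals. It is not put forward as the arm that acts on Ndufa4.

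mmu-miR-147-5p: uGGAAACAuuucugcacaaacuag

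That mature sequence lies at chr2:122640814-122640837 on the plus strand, and 0 of the other mature mouse miRNAs in the RefSeq table, which holds 1738, had the same seed. Mir147 had no probe set of its own in the annotation, so its level was not measured. The next line gives the 250 bases before the annotated start of AA467197, chr2:122637637-122637886 on the plus strand, with matches to the AP-1 motif TGANTCA and the E-box CACGTG in capitals.

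AA467197 upstream: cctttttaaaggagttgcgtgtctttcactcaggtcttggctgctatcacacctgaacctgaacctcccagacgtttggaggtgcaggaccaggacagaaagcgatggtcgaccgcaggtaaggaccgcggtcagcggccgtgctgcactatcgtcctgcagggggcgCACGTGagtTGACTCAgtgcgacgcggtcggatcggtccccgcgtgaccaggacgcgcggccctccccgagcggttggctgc

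Both strands were searched. The CACGTG match ran from -82 to -77 relative to the start and the TGACTCA match from -73 to -67, and they did not overlap. Of 32851 such upstream windows in the RefSeq table, 6.75% held TGANTCA and 6.02% held CACGTG. The STAT motif TTCNNNGAA, present in 7.02% of windows, and the kappaB consensus, present in 7.25%, had 0 matches upstream of AA467197. The window upstream of Ndufa4 had 0 matches to any of the 4 motifs. These letters describe the sequence, and binding was not measured.

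On the log2 scale, array medians over the 19938 genes lay between 5.74 and 5.89. PBS replicate 3 stood apart, with an interquartile range of 1.68 against 2.42 to 2.80 on the other arrays, and its Pearson r with them was 0.88 to 0.90, against 0.96 to 0.98 between any pair of the remaining 7. Of the 16 stem cell markers listed, 14 were measured and none passed the test in either direction, with Kit at a mean log2 intensity of 10.70 in PBS and 10.35 in G-CSF samples and Hlf at 10.51 and 10.40. The 14 had a median difference of -0.05, and 4 were positive, against 41.7% of all genes. The groups were separate with G-CSF higher at 1, where 3.37% of all genes were. This was Esam, named after its values were seen, at 6.76 in PBS and 7.66 in G-CSF samples (limma adjusted p = 0.206). Markers the sort selects against were not all dim, with Cd48 at 7.19 in PBS and 7.84 in G-CSF samples, and Itga2b, which encodes CD41, at 7.39 and 7.50. The lineage marker Itgam had 6.09 in PBS and 7.77 in G-CSF samples with groups that did not overlap (limma adjusted p = 0.206), and Ly6g had 5.82 and 7.19 with groups that did (limma adjusted p = 0.530). The T cell markers Cd3e, Cd4 and Cd8a had 5.68, 5.87 and 5.70 in PBS and 5.67, 5.62 and 5.43 in G-CSF samples. Of the 7 measured markers the sort selects against, 0 passed the test, where 0.0953% of all genes passed as higher and 0 as lower. The groups were separate at 1, with G-CSF higher, where 3.37% of all genes were separate in that direction. No detection call was available, so 16 measured genes typical of other organs, such as liver or testis, were taken as a guide to dim signal. Their mean log2 intensities over all arrays ran from 3.04 for Crygd to 6.18 for Apoa1. Probe sets differ in affinity, so this range is only a rough guide.

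AA467197 was higher on every G-CSF array than on any PBS array. Its log2 intensity was 5.41, 5.57, 4.64 and 4.33 in PBS replicates 1 to 4. It was 8.92, 8.95, 8.11 and 6.87 in G-CSF replicates 1 to 4. The lowest G-CSF value thus lay 1.30 above the highest PBS value, and all 4 PBS values fell within the range of the dim reference genes, whereas all 4 G-CSF values lay above it. The group means were 4.99 ± 0.60 (SD, n = 4) in PBS and 8.21 ± 0.98 (SD, n = 4) in G-CSF samples.

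**Figure D1:**
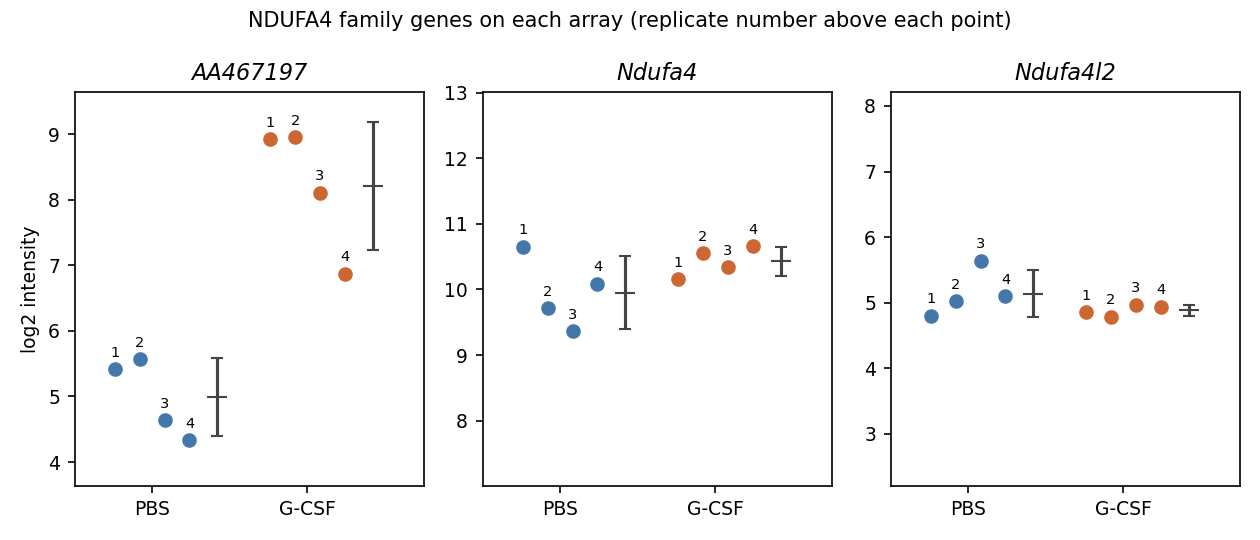
Log2 intensity of the 3 genes on each array (vertical axes all span 6 log2 units), with PBS in blue and G-CSF in orange, the replicate number above each point and the mean with SD as a bar at the right of each group. AA467197 lies between 6.87 and 8.95 on the G-CSF arrays and between 4.33 and 5.57 on the PBS arrays, whereas the groups overlap for Ndufa4 and Ndufa4l2.

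The difference of AA467197 was 3.23 ± 0.45 SE on the log2 scale, a 9.35-fold higher intensity with a 95% interval of 4.74 to 18.4, and it was the 6th highest of the 19938 genes. Because the PBS signal lay in the dim range, that fold depends on the background: with 16 added to every intensity before taking logs the difference was 2.71. AA467197 was among the 19 genes (0.0953% of all) that were higher after G-CSF at an adjusted p under 0.05 with limma. The family was chosen with this difference known, so both the call and the difference are given here as a description and not as a test. The call was lost in 7 of 17 alternatives, among them those without PBS replicate 3 or 4 or without G-CSF replicate 1 or 2, while the difference stayed at 2.08 or more. The groups did not overlap at 1 of the 3 family members, and they were separate with G-CSF higher at 3.37% of all genes and with G-CSF lower at 2.78%, from which nothing is read. On the intensity scale AA467197 ran from 20.1 to 47.4 in PBS and from 117 to 495 in G-CSF samples. G-CSF replicate 4 was the lowest of its group, and without it the difference was 3.67.

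Neutrophil markers differed between the groups along with AA467197. Of the 24 markers listed 21 were measured, 0 passed over all genes, and all 21 had a positive difference, against 41.7% of all genes. The groups did not overlap at 10, all with G-CSF higher, where 3.37% of all genes were separate in that direction. Several of them, such as Csf3r and Anxa1, are also expressed by stem and progenitor cells. Their mean log2 intensity per array was 6.98 to 7.87 in PBS and 8.03 to 10.05 in G-CSF samples. In PBS 7 of the 21 lay in the dim range, and in G-CSF samples 0 did. The PBS means ran from 3.57 for Stfa2, a granulocyte stefin, to 12.02 for S100a8. Other markers bright in PBS were S100a9 at 11.92 and Retnlg at 9.57, named after their values were seen.

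G-CSF replicates 1 and 2 had the highest marker means, both 10.05, and the highest AA467197 values, 8.92 and 8.95. The order differed among the other arrays. G-CSF replicate 3 had the lowest marker mean of its group, 8.03, with AA467197 at 8.11, and G-CSF replicate 4 had a marker mean of 8.62 with AA467197 at 6.87. Among the PBS arrays, replicate 1 had a marker mean of 7.87 and AA467197 at 5.41, whereas replicate 2 had 6.98 and 5.57. G-CSF replicate 3 and PBS replicate 1 were nearly level for the marker mean, 8.03 and 7.87, and differed for AA467197, 8.11 and 5.41. Single markers differed between this pair of arrays in both directions, such as Stfa2 (5.89 and 3.32) and Stfa3 (3.56 and 5.32). With the marker mean as a covariate the difference of AA467197 was 2.08, and 0 of the 19938 genes passed the limma threshold. The marker means did not overlap between the groups, so this covariate is confounded with treatment. Differences fitted with it, here and below, cannot be read as corrected for neutrophil cells. In sorted pools such as these, more cells of a type and more RNA per cell cannot be told apart, and the part of other cells in the difference was not tested beyond these values. The monocyte and macrophage markers, 16 measured of 18, had array means of 6.68 to 7.91 in PBS and 6.85 to 8.01 in G-CSF samples, which overlapped. Of the 16, 11 had a positive difference, against 41.7% of all genes, and 0 passed. Their median difference was 0.26, or 0.08 without PBS replicate 3. The groups were separate with G-CSF higher at 3, where 3.37% of all genes were. These, named after their values were seen, were Itgam (1.68 ± 0.38 SE), Ms4a6c (1.40 ± 0.39 SE) and Ccr2 (0.91 ± 0.24 SE). The markers with a negative difference ran from -0.28 for Ms4a7 to -0.13 for Mrc1.

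**Figure D2:**
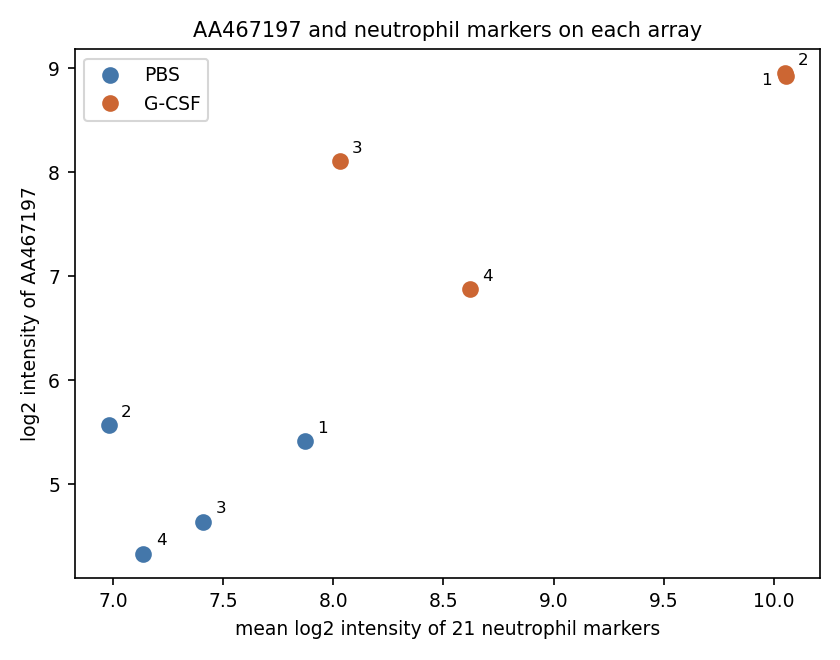
Log2 intensity of AA467197 (vertical axis) against the mean log2 intensity of 21 neutrophil markers (horizontal axis), 1 point per array with its replicate number. G-CSF replicate 3 lies at 8.03 on the marker axis and 8.11 for AA467197, close to PBS replicate 1 on the marker axis (7.87) but above it for AA467197 (5.41).

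Ndufa4, the subunit of complex IV found in most tissues, was bright on all arrays, and its groups overlapped. Its log2 intensity was 10.65, 9.71, 9.36 and 10.09 in PBS replicates 1 to 4. It was 10.15, 10.55, 10.34 and 10.66 in G-CSF replicates 1 to 4. PBS replicate 1 was almost as high as the highest G-CSF array, and the other PBS arrays lay below all G-CSF arrays. The means were 9.95 ± 0.55 (SD, n = 4) and 10.43 ± 0.22 (SD, n = 4), a difference of 0.47 ± 0.26 SE with a 95% interval of -0.11 to 1.05. Leaving out PBS replicate 3 gave 0.28 ± 0.23 SE, and leaving out PBS replicate 1 gave 0.71, so the size of the difference turned on single PBS arrays. Among the 1994 brightest genes, to which Ndufa4 belongs, the median difference was 0.18, and 0.07 without PBS replicate 3. The difference of Ndufa4 was positive in all 17 alternatives run, and its interval includes 0.

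Ndufa4l2, the paralog induced in hypoxia, was dim in both groups. Its log2 intensity was 4.80, 5.02, 5.64 and 5.10 in PBS replicates 1 to 4. It was 4.85, 4.78, 4.97 and 4.94 in G-CSF replicates 1 to 4. All 8 values fell within the range of the dim reference genes, and PBS replicate 3 was the highest. The means were 5.14 ± 0.36 (SD, n = 4) and 4.89 ± 0.08 (SD, n = 4), and the difference was -0.25 ± 0.20 SE, or -0.09 ± 0.14 SE without PBS replicate 3. The dim reference genes moved by a like amount, with a median of -0.23, and -0.04 without PBS replicate 3. Expression of Ndufa4l2 was therefore not distinguishable from dim signal on these arrays.

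The other genes of complex IV were read from a list of 21 subunits, of which 17 were measured. At an adjusted p under 0.05 (limma over all genes), 0 of the 17 were higher and 0 lower, and at an unadjusted p under 0.05 there were 4 higher and 0 lower, where 6.07% of all genes were higher and 2.94% lower at that level. Of the 17, 12 had a positive difference, against 41.7% of all genes. The median difference was 0.26, or 0.33 without PBS replicate 3, and that of all genes was -0.07. Brighter genes had higher differences in general: of the 5982 brightest genes by mean intensity, which hold 11 of the 17 subunits, 72.7% were positive, with a median of 0.18 (0.07 without PBS replicate 3), and 7.1% were separate with G-CSF higher. Those 11 subunits were 100% positive, with a median of 0.50 (0.57 without PBS replicate 3), and 36.4% of them were separate with G-CSF higher. The groups were separate at 4 subunits, all higher after G-CSF, among them Cox5a and Cox4i1.

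Cox5a, a nuclear-encoded subunit that binds next to the core of the enzyme, ran from 7.95 to 8.85 on the PBS arrays and from 9.13 to 9.39 on the G-CSF arrays. All of its G-CSF values lay above all PBS values, and the difference was 0.93 ± 0.22 SE (limma adjusted p = 0.212). Cox7a2l, which joins complexes III and IV into supercomplexes, had a difference of 0.77 ± 0.24 SE (limma adjusted p = 0.369), and Cox6b1 0.88 ± 0.30 SE (limma adjusted p = 0.451), or 0.57 without PBS replicate 3. Cox4i1, the widespread form of subunit 4, had 9.91, 9.76, 7.04 and 9.31 in PBS replicates 1 to 4 and 10.26, 10.32, 10.03 and 10.42 in G-CSF replicates 1 to 4. PBS replicate 3 lay far below the others, and the difference of 1.25 was 0.60 without it.

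The 5 subunits with a negative difference, named after their values were seen, were Cox4i2, Cox6a2, Cox7b2, Cox8b and Cox8c, from -0.34 for Cox8c to -0.16 for Cox8b, with 0 past the threshold. Their PBS means ran from 3.79 for Cox7b2 to 6.74 for Cox6a2, and all but Cox6a2 lay in the range of the dim reference genes, whose median difference was -0.23. Without PBS replicate 3 they were nearer to 0, from -0.21 for Cox8c to -0.02 for Cox7b2. Cox4i2, the form of subunit 4 that responds to hypoxia, had 6.11 ± 0.30 (SD, n = 4) in PBS and 5.87 ± 0.18 (SD, n = 4) in G-CSF samples (limma adjusted p = 0.637), a difference of -0.24, or -0.10 without PBS replicate 3. PBS samples varied more than G-CSF samples at 15 of the 17 subunits, with median SDs of 0.46 and 0.17, and over all genes the PBS SD was the larger at 73.6%. With the neutrophil marker mean as a covariate the median of the subunits was 0.00164.

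**Figure D3:**
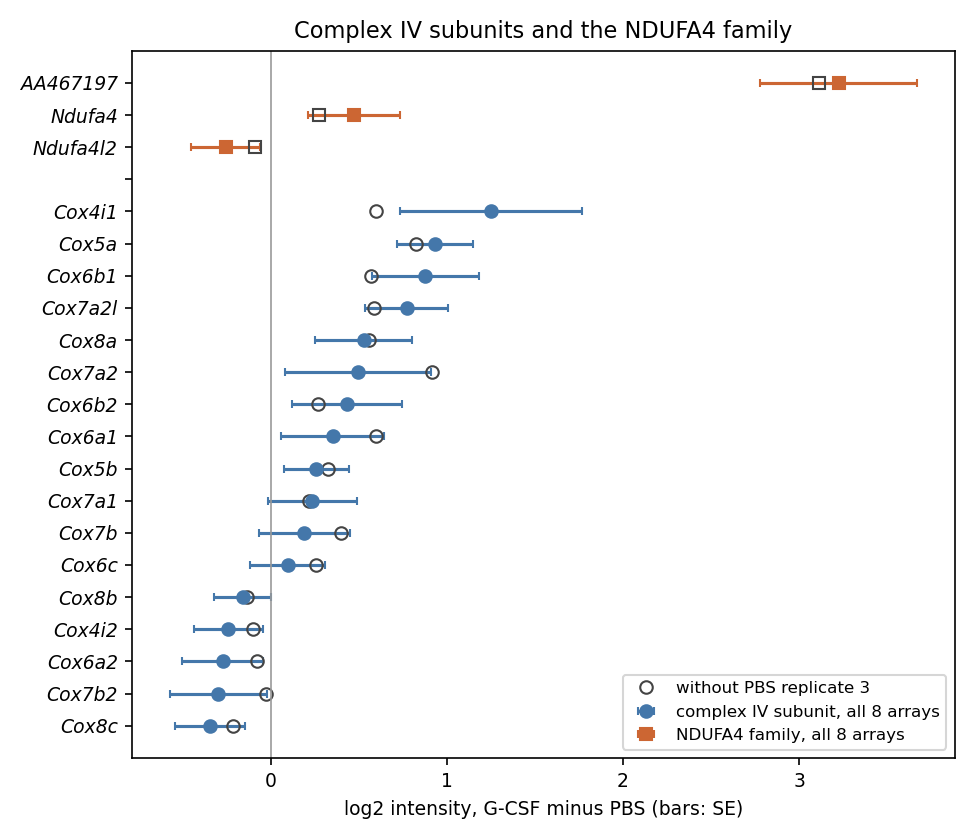
Difference in log2 intensity, G-CSF minus PBS, with SE, for 17 complex IV subunits (blue circles) and the NDUFA4 family (orange squares), with open symbols for the difference without PBS replicate 3. Ndufa4 (0.47) lies among the subunits, which run from -0.34 to 1.25, whereas AA467197 (3.23) lies above all of them.

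Factors that assemble complex IV showed values of the same order. Of the 26 listed, 22 were measured, and 0 passed over all genes in either direction with limma. At an unadjusted p under 0.05, 4 were higher and 0 lower, where 6.07% of all genes were higher and 2.94% lower. A positive difference was seen at 18 of the 22, against 41.7% of all genes, and the median was 0.21. The groups were separate with G-CSF higher at 3, where 3.37% of all genes were. The 13 factors among the 5982 brightest genes were 84.6% positive with a median of 0.20, against 72.7% and 0.18. Coa3, which stabilises newly made COX1, had a difference of 1.24 ± 0.26 SE (limma adjusted p = 0.171). Surf1, which acts early in the assembly of COX1 and is mutated in Leigh syndrome, had 1.37 ± 0.40 SE (limma adjusted p = 0.335), with 0.90 without PBS replicate 3. Cox19, a copper chaperone, had 0.56 ± 0.17 SE and Higd2a 0.75 ± 0.28 SE (limma adjusted p = 0.357 and 0.492), the latter 0.48 without PBS replicate 3.

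Complex I, to which NDUFA4 was once assigned, had 34 of 36 listed subunits measured. Again 0 passed over all genes with limma. At an unadjusted p under 0.05, 11 were higher and 0 lower, where 6.07% of all genes were higher and 2.94% lower. A positive difference was seen at 30 of the 34, with a median of 0.36, and the groups were separate at 10, all with G-CSF higher. All 34 are among the 5982 brightest genes, of which 72.7% were positive, the median was 0.18 and 7.1% were separate with G-CSF higher. Ndufb9 had the lowest p, with a difference of 0.66 ± 0.17 SE (limma adjusted p = 0.275), and Ndufb7 had 0.97 ± 0.26 SE, Ndufa9 0.83 ± 0.27 SE (0.55 without PBS replicate 3) and Ndufb11 0.48 ± 0.16 SE. Ndufa4 with 0.47 thus lay between these 4, picked for their low p, and the list's median. Without PBS replicate 3 the median was 0.44, and Ndufa4 with 0.28 lay below it. With the neutrophil marker mean as a covariate the median was 0.19.

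Genes known to be induced in hypoxia, as Ndufa4l2 is, had a median difference of 0.18, with 15 of 20 positive, against 41.7% of all genes. With limma 0 of the 20 passed over all genes. At an unadjusted p under 0.05, 5 were higher and 0 lower, where 6.07% of all genes were higher and 2.94% lower. The groups were separate with G-CSF higher at 3, where 3.37% of all genes were. The 9 among the 5982 brightest genes were 88.9% positive with a median of 0.17, against 72.7% and 0.18. Bhlhe40, a transcription factor with other inducers besides hypoxia, had 5.81, 6.56, 4.75 and 5.10 in PBS replicates 1 to 4 and 6.96, 6.99, 7.63 and 7.57 in G-CSF replicates 1 to 4. Its difference was 1.73 ± 0.35 SE (limma adjusted p = 0.147, and 0.0359 without PBS replicate 2). Pfkfb3 and Ldha, of glycolysis, had 0.71 ± 0.20 SE and 0.68 ± 0.19 SE, and Car9, a carbonic anhydrase, had 0.80 ± 0.22 SE (limma adjusted p = 0.303). Without PBS replicate 3 the median was 0.25, and with the neutrophil marker mean as a covariate it was 0.37.

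Inflammatory and NF-kB dependent genes were listed because AA467197 is known to be induced with them in macrophages. Of 24 listed 23 were measured, and 0 passed over all genes with limma in either direction, where 4 were higher and 0 lower at an unadjusted p under 0.05. The median difference was 0.19, or 0.11 without PBS replicate 3, and 16 of 23 were positive. Bcl3, a nuclear partner of NF-kB that STAT3 can also induce, had 7.73, 6.24, 6.10 and 7.06 in PBS replicates 1 to 4 and 8.09, 8.87, 8.57 and 8.41 in G-CSF replicates 1 to 4. The difference was 1.70 ± 0.34 SE (limma adjusted p = 0.125, and 0.0393 without PBS replicate 1).

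Il1b, which encodes interleukin-1 beta, had 8.77 and 8.62 in G-CSF replicates 1 and 2, 6.33 in replicate 3 and 7.59 in replicate 4, and 5.65 to 6.60 in PBS. Replicate 3 lay within the PBS range, and the difference was 1.77 ± 0.46 SE (limma adjusted p = 0.298, and 0.0392 without G-CSF replicate 3). On that same array AA467197 had 8.11, above all of its PBS values. The chemokine gene Cxcl2 had a difference of 1.28 ± 0.36 SE with overlapping groups, and the acute-phase gene Saa3 1.30 ± 0.30 SE (limma adjusted p = 0.208). Some canonical NF-kB targets are named here after their values were seen. Nfkbia, Tnfaip3 and Relb had 0.27, 0.11 and 0.04, and -0.11, -0.07 and 0.11 without PBS replicate 3, so the sign turned for Nfkbia and Tnfaip3. Ptgs2, Nfkbie and Tnf had 0.73, 0.49 and 0.35, and 0.66, 0.34 and 0.49 without that array. Icam1 and Traf1 had -0.07 and -0.16, and -0.10 and -0.29 without it. Of the 23 listed genes measured, 16 were positive, against 41.7% of all genes. Acod1, of stimulated macrophages, had -0.18, or -0.09 without that array.

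The genes beside AA467197 on chromosome 2 were examined in RefSeq order. Slc30a4, a zinc transporter that follows AA467197 and Mir147, had 5.26 ± 0.58 (SD, n = 4) in PBS and 6.59 ± 0.28 (SD, n = 4) in G-CSF samples. Its groups did not overlap, and the difference was 1.33 ± 0.28 SE, short of the threshold (limma adjusted p = 0.171, and 0.0445 without PBS replicate 4). Gatm, an enzyme of creatine synthesis, had a difference of 1.00 ± 0.24 SE (limma adjusted p = 0.243), also with groups that did not overlap. G-CSF was higher at both, and 3.37% of all genes were separate in that direction. Spata5l1, which lies between Gatm and AA467197, had -0.24 ± 0.23 SE (limma adjusted p = 0.688) with overlapping groups, or -0.39 without PBS replicate 3.

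Beside Ndufa4 on chromosome 6 the only protein-coding neighbour within 3 genes was Phf14, whose gene begins after a gap of 274 bases. Phf14, a chromatin reader, had a difference of -0.17 ± 0.20 SE (limma adjusted p = 0.721), or -0.04 without PBS replicate 3. Ndufa4l2 on chromosome 10 overlaps Shmt2, an enzyme of mitochondrial one-carbon metabolism, by 32 bases. Shmt2 had a difference of 0.56 ± 0.35 SE, or 0.23 without PBS replicate 3, and the other 4 protein-coding neighbours of Ndufa4l2 had differences between -0.21 for Stac3 and 0.38 for Lrp1 (-0.11 and 0.21 without PBS replicate 3), with 0 past the threshold.

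**Figure D4:**
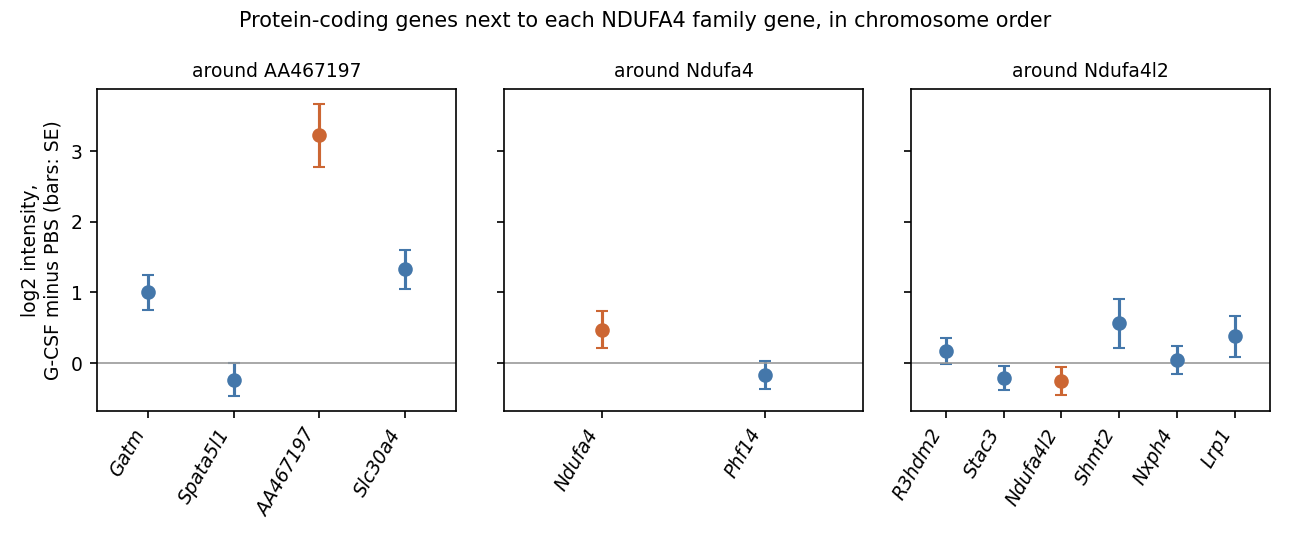
Difference in log2 intensity, G-CSF minus PBS, with SE, for each family member (orange) and its protein-coding neighbours (blue) in chromosome order. Slc30a4 (1.33) and Gatm (1.00) lie above 0 on either side of AA467197 (3.23), and Spata5l1 (-0.24), next to it, does not.

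The genes most like AA467197 over the 8 arrays, by Pearson r of log2 intensity and leaving out predicted genes, were Vcan (r = 0.98) and Fgr (r = 0.97), followed by Med17, S100a6, Klhdc4, Atg101, Tgfbi and Clec5a, down to r = 0.94. The arrays share 2 groups, so these coefficients largely reflect the step between them, and at all 8 genes the G-CSF values lay above the PBS values. Fgr, a Src family kinase of myeloid cells, had 6.17, 5.87, 5.90 and 5.89 in PBS replicates 1 to 4 and 8.22, 7.88, 7.54 and 6.78 in G-CSF replicates 1 to 4. As for AA467197, G-CSF replicate 4 was the lowest of its group. Clec5a, a C-type lectin of myeloid cells, had a difference of 2.31 ± 0.37 SE, S100a6, a calcium-binding protein, 2.14 ± 0.38 SE, and Vcan, the proteoglycan versican, 0.78 ± 0.18 SE. With the neutrophil marker mean as a covariate these were 0.87 for Clec5a, 0.82 for S100a6 and 0.90 for Fgr. These differences are descriptions, since the genes were picked for a pattern like that of AA467197.

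With each group's mean taken from its own arrays, the genes most like AA467197 were Rap1a (r = 0.93), Ilvbl, Sox5, Mexis, Cdc14a, Tfe3, Stk39 and Nudt18 (r = 0.90). None of these 8 was among the 8 above. The groups were separate at 1 of them, Nudt18, with G-CSF lower (-0.29 ± 0.17 SE), where 2.78% of all genes were separate in that direction. For Ndufa4 the 5 most alike over the arrays were Romo1, of the mitochondrial inner membrane (r = 0.98), Tcn2, Nifk, Sun1 and Ddx31 (r = 0.96), and all 5 were lowest on PBS replicate 3. Without that array r was 0.96 for Romo1 and 0.93 for Ddx31. For Ndufa4l2 they were Tex33, Gal3st1, Il17rd, Csn3 and Nutm1, with r from 0.98 to 0.99, and all 5 were highest on PBS replicate 3. Without it r fell to between 0.87 and 0.97.

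**Figure D5:**
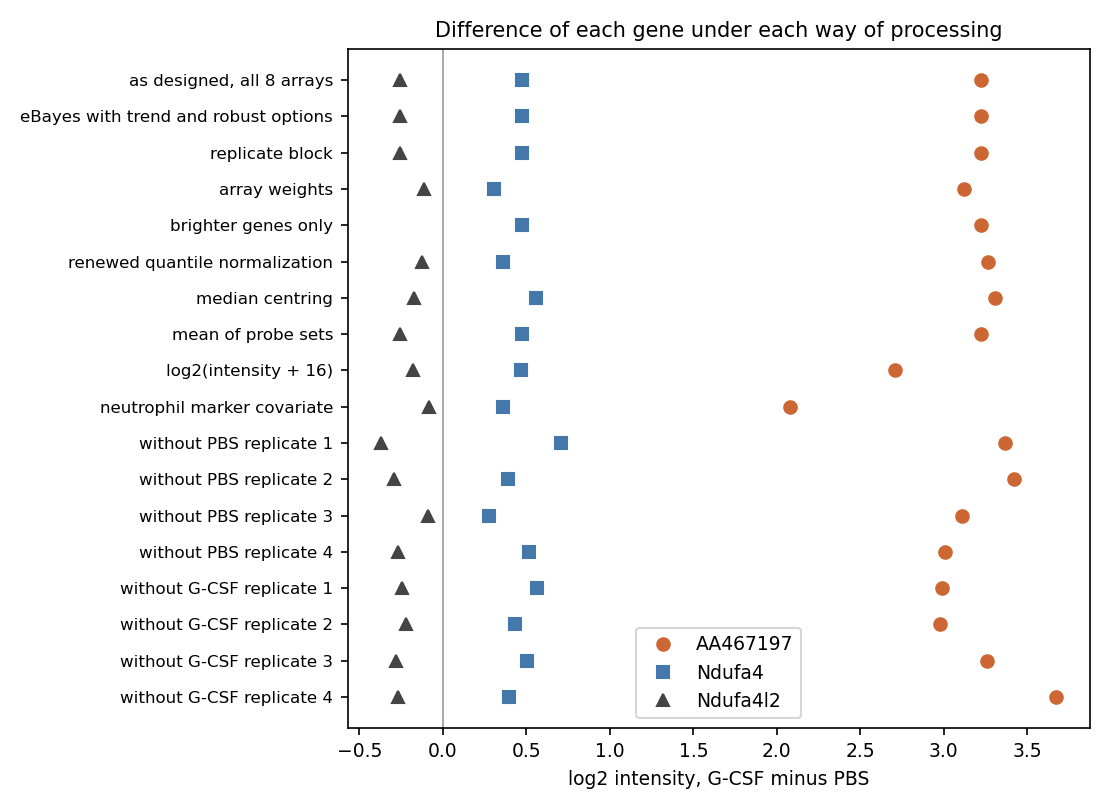
Difference in log2 intensity, G-CSF minus PBS (horizontal axis), of AA467197, Ndufa4 and Ndufa4l2 under each way of processing (vertical axis). AA467197 lies between 2.08 and 3.67 in the alternatives and Ndufa4 between 0.28 and 0.71, whereas Ndufa4l2 lies between -0.37 and -0.08.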

How the data were processed

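MoGene 1.0 ST arrays with 35556 probe sets were deposited as linear intensity values. RMA is named per the submitters' processing notes, with version and options not given in the sources used here. RNA was amplified with NuGen Ovation, per the labels' protocols. Log2 was taken of each intensity. Of the probe sets, 21789 carried 1 symbol, 1621 several and 12146 none; the first kind, 1 per gene, gave 19938 genes, and 21698 of those probe sets were found in a RefSeq table (GRCm38.p6). The fit used limma 3.58.1 under R 4.3.3 (lmFit, eBayes, 2-sided, Benjamini-Hochberg over all genes, threshold 0.05, no dim filter). Members, lists and the rule for named genes were chosen with earlier results of these data known. The rule names members, the 4 listed genes with the lowest p per list, 4 fixed complex IV genes, neighbours and genes of like pattern. The series' design text calls the samples of each group independent, and the number of arrays limits the precision. On simulated arrays of this comparison (19938 genes), 39 of 67 changes of 1, 67 of 67 of 2 and 66 of 66 of 3 on the log2 scale were recovered, with 9 false calls. Among measured genes, Stfa2, Cxcr2 and Mmp8 had 4.55, 3.35 and 2.70 and did not pass (limma adjusted p = 0.0639, 0.185 and 0.224). AA467197, with 3.23, did pass. Recovery on the measured arrays themselves was not tested, so the counts recovered may not hold for them. Same-numbered arrays did not deviate together (r = -0.03, 0.06, 0.06 and 0.14), so replicate numbers were not used as pairs. Alternatives covered moderation, blocking, weights, filtering, normalization, probe sets, an offset, a marker covariate and left-out arrays.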

Additional observations from a re-analysis of the deposited data

Results flagged for a closer look

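Of 82 sets of 4 arrays examined for a value far from its group, 3 held one, where about 1 in 20 would by chance. Fgr had 6.17 on PBS replicate 1, above 5.87 to 5.90 on the other PBS arrays. Saa3 had 5.37 on PBS replicate 3, above 4.70 to 4.78 on the others. Stac3, next to Ndufa4l2, had 5.00 on PBS replicate 3. None of the 3 NDUFA4 family genes held such a value in either group.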

How the results depend on the processing

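The difference of AA467197 was positive in all 17 alternatives and ranged from 2.08 with the neutrophil marker covariate to 3.67; leaving out single arrays gave 2.98 to 3.67. Its adjusted p in limma was under 0.05 in 10 of them. It was 0.0599 after quantile normalization, 0.0941 with 16 added to the intensity, 0.774 with the covariate, 0.0881 without PBS replicate 3, 0.0681 without PBS replicate 4, 0.0994 without G-CSF replicate 1 and 0.0957 without G-CSF replicate 2. With the replicate number as a block the difference was 3.23 and 23 genes were higher; the block changed no call on the lists. The count of higher genes, 19, was 0 with all probe sets (lowest adjusted p 0.0615), 0 with the covariate, 37 with array weights, 10 after quantile normalization, and 3 to 30 with 1 array left out (3 without G-CSF replicate 2, 7 without G-CSF replicate 4, 10 without G-CSF replicate 1 and 30 without G-CSF replicate 3). The count of lower genes, 0, was 3 with array weights and 0 to 2 with 1 array left out. Counts of 0 on the NF-kB and hypoxia lists became 0 to 1 with 1 array left out, and the hypoxia median of 0.18 became 0.37 with the covariate. Signs reversed for Il1b with the covariate (-0.16), for Lrp1 with the covariate (-0.40), and for Nxph4 with array weights (-0.0059), without PBS replicate 2 (-0.03), without G-CSF replicate 1 (-0.02) and without G-CSF replicate 3; with 1 array left out Nxph4 ran from -0.050 to 0.17. The cause was not tested. Of 507 values of the 30 tested genes named singly, 497 kept their direction and side of the threshold, 4 came past it and 6 reversed. The 8 genes most like AA467197 were described, not tested: 126 of their 134 values moved by less than 1 residual SD, all kept their sign, and their adjusted p came under 0.05 in 8 (of Clec5a, S100a6 and Fgr) and went over it in 1 (Tgfbi with the covariate). Without PBS replicate 3 signs also turned for 3 assembly factors, 1 complex I subunit, 2 hypoxia and 5 NF-kB list genes.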
